A study of Mus musculus with 23 samples.

Results

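Phenylalanine is broken down by way of tyrosine, and 9 genes of that route and of its cofactor are described here in mouse liver. They were taken from the gene table by their symbols: Gch1, Gchfr, Pcbd1 and Qdpr, which serve the cofactor tetrahydrobiopterin, and Tat, Hpd, Hgd, Gstz1 and Fah, which degrade tyrosine. All 9 of 9 were present among 24475 genes, and all 9 were among the 11939 genes that passed the filter on low values. Each of the 9 symbols stood beside 1 gene ID.

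The livers came from male C57BL/6J mice kept on chow or on a high fat diet (HFD), for 4 months before treatment began, and dosed with an antibody (10 mg/kg) over 3 weeks. REGN1193 blocks the glucagon receptor (GCGR), and REGN496 was taken as the isotype control antibody by elimination, since the design text names only 1 other antibody. On chow, libraries 1 to 5 had the control antibody (n = 5) and 6 to 11 the GCGR antibody (n = 6). On HFD, libraries 12 to 17 had the control antibody (n = 6) and 18 to 23 the GCGR antibody (n = 6). Every group thus received an antibody. Age and time of sampling are not stated. Whether libraries are separate mice is not stated either, and p-values therefore measure the spread between these samples only.

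Tetrahydrobiopterin is the cofactor that aromatic amino acid hydroxylases use up, and liver both makes it and recycles it. Tyrosine then loses its amino group, its ring is oxidised and opened, and the chain is split into fumarate and acetoacetate, so that the carbon can enter glucose and ketone bodies. Hepatocytes carry out this route, and glucagon, which acts on hepatocytes through cAMP, and glucocorticoids are known inducers of Tat in liver.

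Expression was measured as RPKM, which scales reads by gene length and by library size. Levels of different genes can thus be set beside each other. Comparisons between libraries also depend on the scaling, and counts over all genes moved with it, as given below. Column sums ran from 594026 to 692295 RPKM, and relative depth, read from the steps that single reads leave in low values of 359 genes, ranged from 0.865 to 1.15. Absolute depth is not given in the table. The 7 hepatocyte markers summed to between 57860 and 77827 RPKM in every library. With the antibody on HFD 1 of them was lower (Alb, -0.37, adjusted p = 0.0137) and 1 higher (Cyp2e1, 0.56, 0.00298), and their sum was 66333 to 77827 RPKM in controls and 60820.2 to 66529 with GCGR antibody. The 37 markers of other cell types, without erythroid genes, summed to between 139 and 187 RPKM with control antibody and between 190.1 and 216 with GCGR antibody on chow, and to between 152 and 251 and between 144 and 276 on HFD. Of the 23 of them that could be tested, 0 were called by limma for the antibody effect on chow and 2 on HFD, both higher (2 and 8 at an unadjusted p under 0.05). Over all 11939 tested genes 0.394% were called higher and 0.553% lower on chow, and 5.33% and 2.12% on HFD. At an unadjusted p under 0.05 these were 838 higher and 450 lower on chow, and 2033 and 836 on HFD. Of 6 markers of periportal hepatocytes, where amino acid breakdown is known to be strong, 1 was lower with the antibody on chow (5 at an unadjusted p under 0.05). On HFD 2 of them were lower and 1 higher. Their median log2 fold changes were -0.74 on chow and -0.59 on HFD. Their sum on chow was 3857 to 5423 RPKM in controls and 2019 to 3171 with GCGR antibody, and on HFD 2334 to 3584 and 1570 to 2432. Of 6 pericentral markers 1 was lower with the antibody on chow, and on HFD 1 was lower and 2 higher, with medians of -0.05 and 0.19. The part of these markers in the results below was not tested, and in bulk liver fewer cells of a type and less RNA per cell cannot be told apart. Libraries 19 and 20, both of GCGR antibody on HFD, correlated least with the rest of their group (mean r down to 0.979), and results that rest on them are given with and without them.

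Transcripts of this route were abundant. Hpd, the dioxygenase that turns 4-hydroxyphenylpyruvate into homogentisate, had a mean of 997 RPKM over all libraries and ranked 83 of 11939 genes. Gch1, the rate-limiting enzyme of tetrahydrobiopterin synthesis, was lowest of the 9 at 43.0 RPKM and ranked 1377. In livers with control antibody on chow the order by median RPKM was Hpd (1057), Fah (379.9), Gstz1 (355), Tat (347), Qdpr (279.4), Hgd (279.2), Pcbd1 (189), Gchfr (108) and Gch1 (55.5). The ranges of Hpd, Hgd, Pcbd1 and Gchfr did not overlap that of the next gene in this order, while neighbours from Fah down to Hgd overlapped. Gch1 and then Gchfr were the lowest in all 4 groups and Hpd the highest. Tat moved from the fourth place to the seventh with GCGR antibody on each diet, where its median was 174 RPKM on chow and 182 on HFD.

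**Figure D1:**
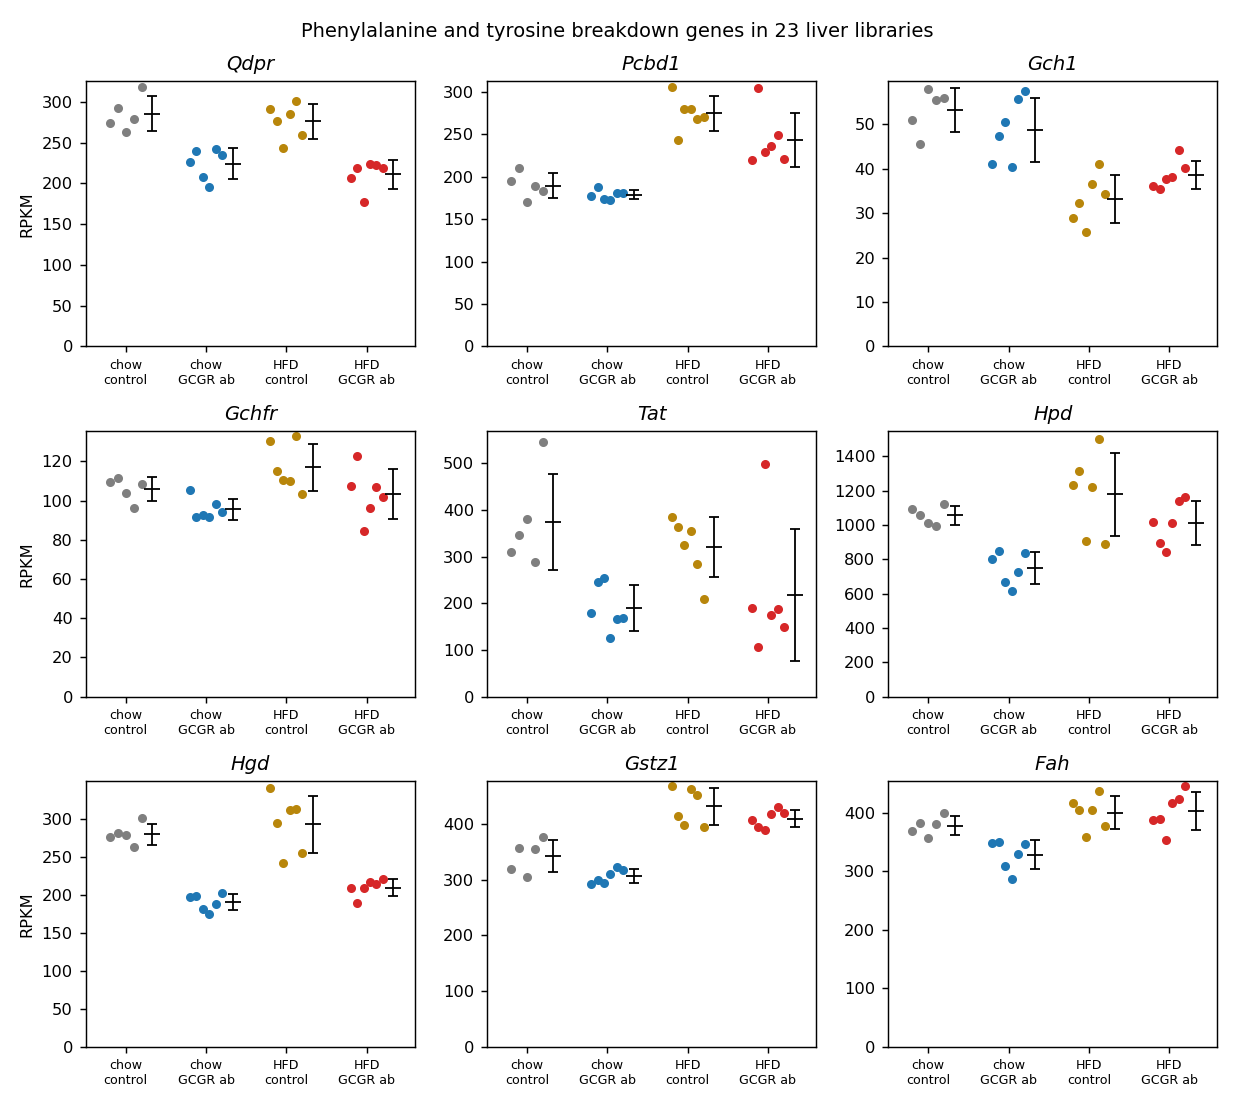
RPKM (vertical axes, from 0) of the 9 genes per library (23 points a gene), split by diet and antibody (horizontal axes); points are libraries and the black marker with its bar is the group mean ± SD (n = 5, 6, 6 and 6). Hgd and Qdpr are lower with GCGR antibody on each diet without overlap, Pcbd1 and Gstz1 are higher on HFD, and 1 library of GCGR antibody on HFD stands at 499 RPKM of Tat.

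Hgd and Qdpr fell with GCGR antibody on both diets. Hgd, homogentisate dioxygenase, opens the aromatic ring and is the enzyme missing in alkaptonuria (gene ID 15233, chromosome 16, 37579742 to 37632026 of GRCm38.p6, plus strand). On chow its 5 control libraries stood at 276, 281, 279, 263 and 302 RPKM, and the 6 libraries of GCGR antibody at 175 (lowest), 193 (median) and 203 (highest). Hgd fell to 191 ± 10.7 RPKM from 280.3 ± 14.02 (SD, n = 6 and 5). Its log2 fold change was -0.55 ± 0.07 (SE; limma, adjusted p = 1.55e-04). On HFD the control libraries ranged from 243 to 342 RPKM with a median of 303, and those of GCGR antibody from 189 to 221 with a median of 212. The log2 fold change was -0.47 ± 0.07 and the adjusted p 1.65e-04. All libraries of GCGR antibody lay below all control libraries of the same diet. Fold changes are of log2(RPKM + 1) throughout, and a gene is called higher or lower at an adjusted p under 0.05 over all genes tested.

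Qdpr, dihydropteridine reductase, returns the spent cofactor to tetrahydrobiopterin (gene ID 110391, chromosome 5, 45434032 to 45450229, minus strand). Its control libraries on chow stood at 274, 292, 263, 279 and 318 RPKM, against 195 to 242 with a median of 230.2 under GCGR antibody. Qdpr fell by 0.35 ± 0.07 on the log2 scale on chow (adjusted p = 0.0215), a call lost without library 2, 5, 8 or 9, where the adjusted p reached 0.0875. On HFD it fell to 211 ± 18.1 RPKM from 276 ± 21.3 (SD, n = 6 in each group). Its log2 fold change was -0.39 ± 0.07 (adjusted p = 0.00151), called also without any 1 library of the HFD groups (up to 0.00547). The ranges were 243 to 301 and 177 to 224 RPKM and did not overlap. In the GENCODE M21 annotation 18.6% of the exonic bases of Qdpr are shared with an antisense gene, Gm42413, and whether the counting used strand is not stated.

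Tat, tyrosine aminotransferase, takes the amino group off tyrosine and is the rate-limiting step of its breakdown (gene ID 234724, chromosome 8, 109986078 to 109999804, plus strand). It had the largest difference of the 9 on each diet and also the largest spread, and it was not called on either. The chow control libraries stood at 310.0, 347, 379.6, 287 and 545 RPKM, and those of GCGR antibody at 125 to 254 with a median of 174. The ranges did not overlap, and the log2 fold change was -0.98 ± 0.27 with an adjusted p of 0.106, or 0.0281 in a fit of the 2 chow groups alone (0.0281 to 0.315 over 19 alternatives). On HFD the control libraries stood at 209 to 385 RPKM with a median of 339.8. The libraries of GCGR antibody stood at 191, 105, 499, 175, 189 and 148 RPKM, in the order of libraries 18 to 23. Of these, 5 lay below every control library and library 20 above all of them. The log2 fold change was -0.71 ± 0.26 with an adjusted p of 0.0984, and without library 20 it was -0.99 with an adjusted p of 0.00367 (0.00367 to 0.267 over 21 alternatives). Without libraries 19 and 20, a choice made after the data were seen, it was -0.84 with an adjusted p of 0.00841.

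The promoter windows of these 3 genes are shown because Hgd and Qdpr were called on both diets and Tat had the largest difference, as the 250 bases before the RefSeq start of transcription in GRCm38.p6. The Hgd window is chr16:37579903-37580152 on the plus strand, the Qdpr window chr5:45450230-45450479 on the minus strand and the Tat window chr8:109990186-109990435 on the plus strand; in Hgd and Tat this start lies inside the gene record. Capitals mark matches, on either strand, to any of 6 motifs searched: the cAMP response element TGACGTCA, the shorter form TGACG that lies within it, the glucocorticoid receptor motif TGTTCT, the TATA box as TATAAA, the CCAAT box and the E-box CACGTG.
Hgd: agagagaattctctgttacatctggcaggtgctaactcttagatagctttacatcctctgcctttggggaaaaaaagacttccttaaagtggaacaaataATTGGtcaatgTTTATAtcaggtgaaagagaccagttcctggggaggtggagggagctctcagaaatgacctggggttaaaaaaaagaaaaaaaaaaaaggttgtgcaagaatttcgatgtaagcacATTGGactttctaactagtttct
Qdpr: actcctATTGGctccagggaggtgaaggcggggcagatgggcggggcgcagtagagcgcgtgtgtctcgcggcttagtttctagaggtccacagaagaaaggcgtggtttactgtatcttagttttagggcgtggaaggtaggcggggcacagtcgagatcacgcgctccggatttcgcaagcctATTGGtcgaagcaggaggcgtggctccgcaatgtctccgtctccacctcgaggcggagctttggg
Tat: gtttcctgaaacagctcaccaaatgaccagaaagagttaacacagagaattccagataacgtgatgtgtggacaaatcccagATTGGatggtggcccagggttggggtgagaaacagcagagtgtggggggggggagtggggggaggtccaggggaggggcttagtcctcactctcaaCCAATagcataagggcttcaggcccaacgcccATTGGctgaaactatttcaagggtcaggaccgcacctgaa
CCAAT, read on the minus strand as ATTGG, was the motif that these windows shared, with 2 matches in Hgd, 2 in Qdpr and 3 in Tat. Over all windows of the genes in the table (21869), 35.4% held it, as did those of 6 of the 9 genes. The letters TGACGTCA stood in 1.99% of all windows and TGTTCT in 14%, and in the windows of 0 of the 9 genes each. A match describes these letters in this window and is not a measured site. The lack of a match says nothing about sequence outside the 250 bases.

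Hpd (gene ID 15445, chromosome 5, 123171807 to 123182723, minus strand) was called on chow. Its control libraries there stood at 1094, 1057, 1014, 995 and 1125 RPKM, and all 6 of GCGR antibody lay lower, at 618 to 849 with a median of 765. Hpd fell to 750.2 ± 94.8 RPKM from 1057 ± 53.8 (SD, n = 6 and 5). Its log2 fold change was -0.50 ± 0.12 (adjusted p = 0.0476). This call was close to the threshold: it was lost without any 1 of libraries 1 to 6 or 8 to 10 (up to 0.135), without the filter on low values (0.0876) and after median-ratio scaling (0.0594). By the exact permutation test Hpd had the smallest p that the test can give, 0.00216. Its adjusted p there was 0.151, as for Qdpr and Hgd, so that this test could not decide the call. On HFD the control libraries spread from 888 to 1503 RPKM and those of GCGR antibody from 842 to 1161, so that the groups overlapped, and the log2 fold change of -0.20 ± 0.12 was not called (adjusted p = 0.293).

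Neither of the last enzymes of the route was called for the antibody. Fah, fumarylacetoacetate hydrolase, which releases fumarate and acetoacetate (gene ID 14085, chromosome 7, 84585159 to 84605942, minus strand), stood at 368, 383, 356, 379.9 and 399.6 RPKM in chow controls and at 287 to 349 under GCGR antibody. These ranges did not overlap, but the log2 fold change of -0.20 ± 0.07 was not called (adjusted p = 0.239). On HFD Fah was at 399.8 ± 28.4 and 402 ± 32.8 RPKM, with a 95% interval of the log2 fold change from -0.13 to 0.14 (adjusted p = 0.951). Gstz1, the isomerase of maleylacetoacetate that also belongs to the glutathione transferases (gene ID 14874, chromosome 12, 87147161 to 87164723, plus strand), overlapped between groups and was not called, at -0.16 ± 0.06 (adjusted p = 0.343) on chow and -0.07 ± 0.06 (0.470) on HFD. Of its exonic bases 9.14% are shared with the antisense gene Pomt2 and 3.07% with another, Gm6566. Whether the counting used strand is not stated.

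Of the other cofactor genes, none was called for the antibody on either diet by limma. Pcbd1 (gene ID 13180, chromosome 10, 61089331 to 61094329, plus strand) encodes the dehydratase that acts before Qdpr in recycling. It was at 189.7 ± 14.5 and 179 ± 5.46 RPKM on chow (log2 fold change -0.08 ± 0.08, adjusted p = 0.760), and at 275 ± 20.5 and 243 ± 32.3 on HFD (-0.18 ± 0.07, 0.128). On HFD 4 of its 6 libraries of GCGR antibody lay below all controls, while library 19 stood at 305 RPKM, and without that library Pcbd1 was lower by call, at -0.25 with an adjusted p of 0.00855 (0.00855 to 0.283 over 21 alternatives). Gchfr, the feedback protein that binds GTP cyclohydrolase (gene ID 320415, chromosome 2, 119167788 to 119172389, plus strand), had log2 fold changes of -0.15 ± 0.08 and -0.18 ± 0.08 (adjusted p = 0.537 and 0.143), and on HFD it too was lower by call without library 19 (-0.23, adjusted p = 0.0342, within 0.0342 to 0.318 over 21 alternatives). Gch1, GTP cyclohydrolase itself (gene ID 14528, chromosome 14, 47153895 to 47189413, minus strand), had -0.13 ± 0.11 on chow (adjusted p = 0.717) and 0.23 ± 0.10 on HFD (0.179).

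By count, 3 of the 9 genes fell on chow (Hgd, Hpd and Qdpr) and 0 rose, where 0.553% of all tested genes were called lower and 0.394% higher (66 and 47 genes, or 76 and 31 with columns scaled to the same sum). The 9 were chosen with earlier results of these data known, so such shares are a description and no test of the 9. Fold changes were below 0 in all 9, with a median of -0.20 against 0.03 over all tested genes. In 5 of the 9 (Qdpr, Tat, Hpd, Hgd and Fah) the libraries of the groups did not overlap, which in this direction held for 0.997% of all tested genes. On HFD 2 of the 9 fell (Hgd and Qdpr) and 0 rose, where 2.12% of all tested genes were called lower and 5.33% higher; after median-ratio scaling 501 genes of the table were lower and 379 higher, against 253 and 636 without it. In both of those the libraries did not overlap, as in 0.846% of all tested genes in this direction. The median of the 9 was -0.18 against 0.05 over all tested genes. At an unadjusted p under 0.05 these counts were 6 lower and 0 higher on chow and 5 lower and 1 higher (Gch1) on HFD, where over all 11939 tested genes they were 450 lower and 838 higher on chow and 836 lower and 2033 higher on HFD. Exact permutation tests, two-sided, gave their smallest possible p, 0.00216, for Qdpr, Hpd and Hgd on chow and for Qdpr and Hgd on HFD, but 0 genes of the table passed that test after adjustment over 11939 genes in these 2 comparisons (1526 and 2347 genes at an unadjusted p under 0.05). Of the 9 genes, 7 on chow and 2 on HFD had an unadjusted p under 0.05 by that test.

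**Figure D2:**
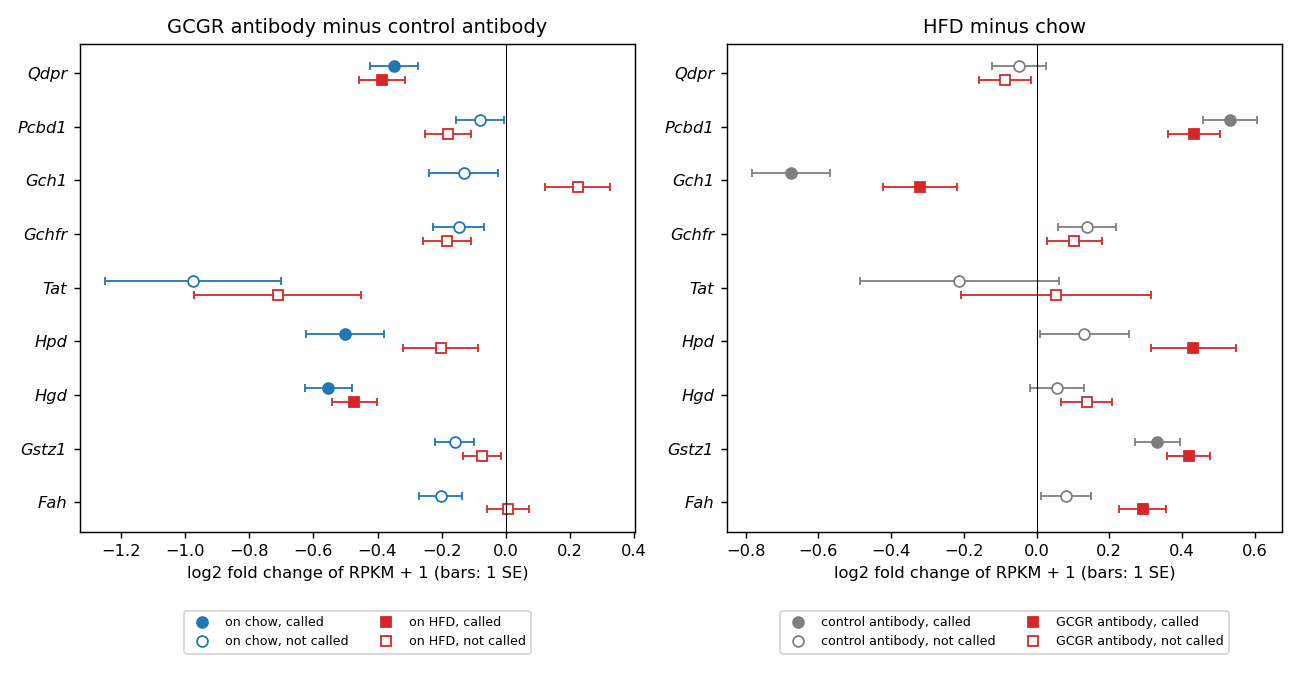
Log2 fold changes of RPKM + 1 (horizontal axes) of the 9 genes (vertical axes) for the antibody effect on each diet (left) and the diet effect under each antibody (right); bars are 1 SE and filled symbols passed an adjusted p of 0.05. Hgd and Qdpr are filled on the left for both diets, and Pcbd1, Gstz1 and Gch1 on the right for both antibodies.

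The antibody effect did not differ by call between the diets for any of the 9 (limma's interaction contrast, 0 called, where 0.201% of all tested genes were called). At an unadjusted p under 0.05, 2 of the 9 were higher and 0 lower, as were 665 and 512 of all 11939 tested genes. Those 2 were Gch1, with a difference of HFD minus chow of 0.36 (95% interval 0.05 to 0.66, adjusted p = 0.432), and Fah, with 0.21 (0.02 to 0.41, adjusted p = 0.462). For Hgd the difference was 0.08 with an interval of -0.13 to 0.29, and for Qdpr -0.04 with an interval of -0.25 to 0.18. Hpd, called only on chow, had a difference of 0.30 with an interval of -0.05 to 0.65 (adjusted p = 0.575), so that its effects are not shown to differ. The interval for Tat was the widest, -0.52 to 1.05.

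With diet, Pcbd1 and Gstz1 rose and Gch1 fell under both antibodies. These comparisons share libraries with the antibody effects. Pcbd1 rose on HFD, reaching 275 ± 20.5 RPKM from 189.7 ± 14.5 under control antibody (SD, n = 6 and 5). Its log2 fold change was 0.53 ± 0.08 (adjusted p = 3.11e-05). The chow libraries stood at 195, 209.98, 171, 189 and 184 RPKM and the HFD libraries at 243 to 306, without overlap. Under GCGR antibody it rose by 0.43 ± 0.07 (adjusted p = 1.25e-04), with 173 to 188 RPKM on chow and 219 to 305 on HFD.

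Gch1 fell on HFD. Its chow control libraries stood at 51.0, 45.6, 58.0, 55.5 and 55.8 RPKM and its HFD control libraries at 25.7 to 41.1 with a median of 33.3. The log2 fold change was -0.68 ± 0.11 with an adjusted p of 1.04e-04, and no library of 1 diet reached the range of the other. Under GCGR antibody the groups overlapped, at 40.4 to 57.6 and 35.3 to 44.2 RPKM, and Gch1 fell by 0.32 ± 0.10 (adjusted p = 0.0213). That call was lost without library 10 or 11 (up to 0.0554) and without libraries 19 and 20 together (0.0790).

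The windows of Pcbd1, at chr10:61089081-61089330 on the plus strand, and Gch1, at chr14:47189414-47189663 on the minus strand, are shown for comparison, since these genes went opposite ways with diet. Capitals have the meaning given above.
Pcbd1: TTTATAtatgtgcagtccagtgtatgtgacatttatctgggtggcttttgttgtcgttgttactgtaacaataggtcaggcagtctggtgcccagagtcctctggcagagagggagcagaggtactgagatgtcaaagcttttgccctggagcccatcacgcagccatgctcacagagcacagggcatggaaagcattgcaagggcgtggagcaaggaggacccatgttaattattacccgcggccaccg
Gch1: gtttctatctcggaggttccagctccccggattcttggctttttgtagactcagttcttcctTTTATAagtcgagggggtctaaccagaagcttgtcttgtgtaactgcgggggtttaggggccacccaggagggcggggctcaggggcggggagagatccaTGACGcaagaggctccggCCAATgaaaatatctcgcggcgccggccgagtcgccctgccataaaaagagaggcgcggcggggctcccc
Gch1 held TGACG 88 to 84 bases before its start and CCAAT 70 to 66 bases before it. TGACG stood in 20.7% of all windows and, among the 9, also in Gstz1. TATAAA, found in 11.4% of all windows, stood on the minus strand in Pcbd1, Gch1 and Hgd, 250 to 134 bases before the start.

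Gstz1 rose on HFD under each antibody. It stood at 320.3, 358, 306, 355 and 376 RPKM in chow controls and at 396 to 468 in HFD controls, a log2 fold change of 0.33 ± 0.06 with an adjusted p of 5.15e-04. Under GCGR antibody the ranges were 293 to 323 on chow and 389 to 431 on HFD (0.42 ± 0.06, adjusted p = 2.12e-05). In neither comparison did the diets overlap. Hpd and Fah were called higher on HFD under GCGR antibody, at 0.43 ± 0.12 (adjusted p = 0.00801) and 0.29 ± 0.06 (0.00187), with Fah at 287 to 349 RPKM on chow and 353 to 446 on HFD. Under control antibody they were at 0.13 ± 0.12 and 0.08 ± 0.07 and not called (0.438 and 0.391). The interaction contrast above is also the test of whether the diet effects differ between antibodies, and it called neither gene.

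Qdpr, Tat, Hgd and Gchfr were not called for diet under either antibody. Their log2 fold changes under control antibody were -0.05 ± 0.07, -0.21 ± 0.27, 0.06 ± 0.07 and 0.14 ± 0.08. For Hgd the 95% interval was -0.10 to 0.21 under control antibody and -0.01 to 0.28 under GCGR antibody. By count, 2 of the 9 rose and 1 fell with HFD under control antibody, where 11.6% of all tested genes were called higher and 18.3% lower. Under GCGR antibody 4 rose and 1 fell, where 13.2% and 16.6% were called. The diets did not overlap for 3 of the 9 under control antibody (Pcbd1, Gch1 and Gstz1; 15.9% of all tested genes) and for 3 under GCGR antibody (Pcbd1, Gstz1 and Fah; 10.3%). After scaling all columns to the same sum the split over all genes under control antibody was 922 higher and 2676 lower, and after median-ratio scaling 1801 and 1815, against 1390 and 2183 as deposited. Of the 23 tested markers of other cell types, 1 was higher with HFD under control antibody, and 6 were higher and 5 lower under GCGR antibody, among them 4 of 6 stellate cell and matrix genes that rose. In the HFD group with GCGR antibody, Col1a1, Col1a2 and Col3a1 of these 6 were highest in libraries 19 and 20. Col1a1 stood there at 8.09 and 12.2 RPKM, against a group median of 4.32, and no fit without these libraries is given. Of the 6 periportal markers 3 were lower with HFD under each antibody, with medians of -0.66 and -0.38. Of the 6 pericentral markers 1 was higher and 1 lower under control antibody, and 2 were higher under GCGR antibody. The part of these markers in the diet results was not tested.

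Since the feedback protein acts by binding the cyclohydrolase, the levels of their transcripts were set against each other. The ratio of Gchfr to Gch1 RPKM had a median of 1.94 in control livers on chow (range 1.74 to 2.45) and of 3.40 on HFD (3.01 to 4.50), without overlap. With GCGR antibody the medians were 1.89 (1.63 to 2.57) on chow and 2.52 (2.25 to 3.48) on HFD. On HFD the libraries of GCGR antibody overlapped the controls through library 19 (3.48), with 5 of 6 below the lowest control. Scaling of a library cancels in this ratio, and no test was run on it.

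**Figure D3:**
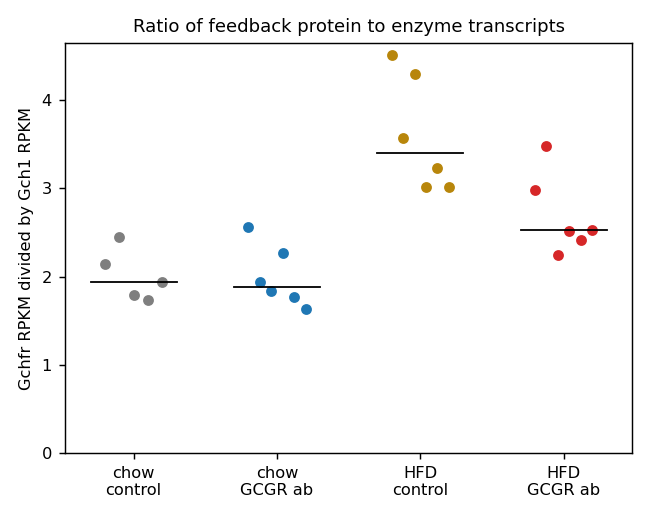
Ratio of Gchfr to Gch1 RPKM (vertical axis) in each library by diet and antibody (horizontal axis); points are libraries and lines are group medians. Control libraries on HFD lie between 3.01 and 4.50, above all control libraries on chow.

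Within groups the 9 genes did not always vary together. In the chow group with GCGR antibody, library 9 was the lowest of its group in 8 of the 9 genes, all but Gstz1. In the chow controls, library 5 was the highest in 6 (Qdpr, Tat, Hpd, Hgd, Gstz1 and Fah). Among HFD controls, library 16 was the highest in 5 and libraries 14 and 17 each the lowest in 4. Library 20 parted from this pattern: it was the lowest of its group in 5 genes (Qdpr, Gchfr, Hpd, Gstz1 and Fah) and the highest in Tat, where its log2 level stood 1.38 above the group mean. Library 19 was the lowest in Tat, Gch1 and Hgd and the highest in Pcbd1 and Gchfr.

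**Figure D4:**
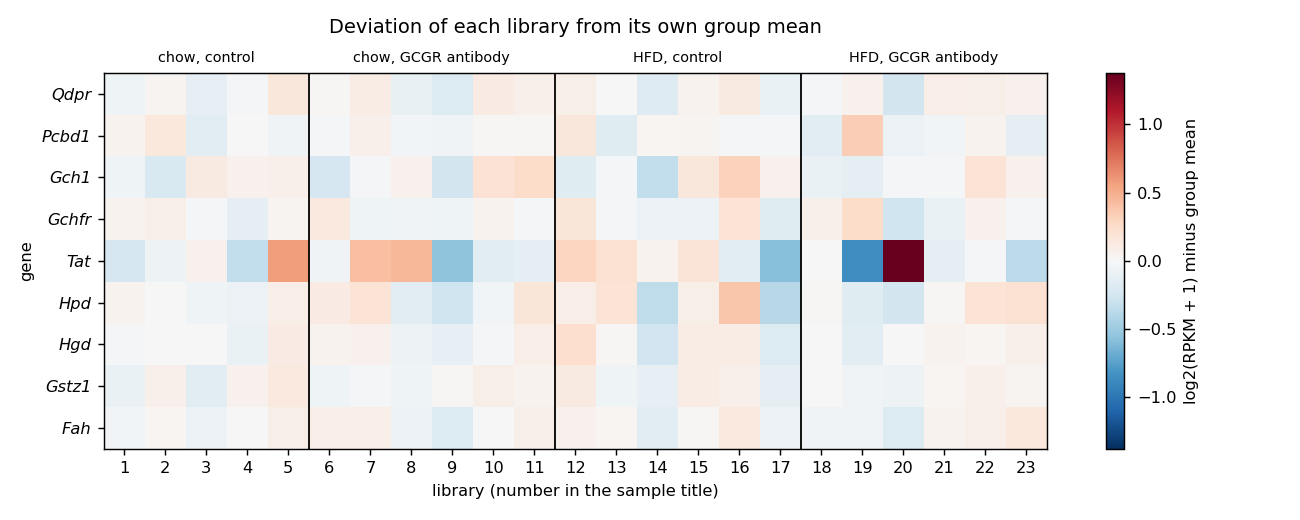
Deviation of each library from its own group mean in log2(RPKM + 1) (colour), for the 9 genes (vertical axis) and the 23 libraries by group (horizontal axis, numbers from the sample titles). Tat shows the deepest colours, with library 20 at 1.38 above and library 19 below the mean of the same group.

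Other genes that handle these amino acids were taken from a list of 29, of which 24 passed the filter; Hpdl, Il4i1, Th, Tph1 and Tyr did not. With the antibody on chow 1 fell and 0 rose (4 and 1 at an unadjusted p under 0.05), and the median log2 fold change was -0.04. Over all tested genes 0.553% were called lower and 0.394% higher there. The gene of the list that fell was Got1, cytosolic aspartate aminotransferase, which can also transaminate aromatic amino acids. It fell from 77.1 ± 16.6 to 16.4 ± 3.16 RPKM (-2.16 ± 0.17, adjusted p = 1.11e-07), a larger change than in any of the 9 genes. Its mitochondrial partner Got2 stood at 204 ± 12.5 and 202 ± 6.59 RPKM (adjusted p = 0.959). On HFD 2 fell and 1 rose, where 2.12% of all tested genes were called lower and 5.33% higher. Got1 fell by 2.09 ± 0.16 and Ddt, D-dopachrome tautomerase, a relative of the phenylpyruvate tautomerase Mif, by 0.38 ± 0.09 (adjusted p = 0.0136). Slc16a10, which carries aromatic amino acids across the cell membrane, rose from 14.7 ± 2.23 to 20.8 ± 4.46 RPKM (0.45 ± 0.13, adjusted p = 0.0376), although no gene of the list was called higher in 9 of the 12 fits that left out 1 HFD library, or after median-ratio scaling or with equal column sums. Tdo2, which starts tryptophan breakdown, was not called on chow (-0.26 ± 0.12, adjusted p = 0.436) or on HFD (-0.12 ± 0.11, 0.542).

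Pts, Spr and Pcbd2, other genes that make or recycle tetrahydrobiopterin, had fold changes above 0 with diet, in the direction of Pcbd1 and opposite to Gch1. Qdpr, which also recycles it, did not follow them, at -0.05 ± 0.07 and -0.09 ± 0.07 under control and GCGR antibody, not called. Of Pts, Spr and Pcbd2, 2 rose with HFD under control antibody and 3 under GCGR antibody, where 11.6% and 13.2% of all tested genes were called higher. Pts, 6-pyruvoyltetrahydropterin synthase, rose from 18.7 ± 0.601 to 23.7 ± 1.92 RPKM under control antibody (0.32 ± 0.06, adjusted p = 7.37e-04). Spr, sepiapterin reductase, which makes the final product, rose by 0.26 ± 0.07 (0.00695). Pcbd2, the paralogue of Pcbd1, was called under GCGR antibody (0.27 ± 0.08, adjusted p = 0.0155) and not under control antibody (0.20 ± 0.09, 0.0854). None of Pts, Spr and Pcbd2 was called for the antibody on either diet by limma.

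Elsewhere in the list, Got2 rose with HFD under control antibody (0.45 ± 0.05, adjusted p = 3.04e-06), and Ddc, aromatic amino acid decarboxylase, fell from 41.9 ± 2.63 to 19.6 ± 5.13 RPKM (-1.09 ± 0.20, 4.93e-04). Aadat, an aminotransferase of kynurenine and aminoadipate, fell by 0.63 ± 0.13 (0.00147). Fahd1, Ddt and Maob rose, at 0.37, 0.28 and 0.38. In all, 6 of 24 rose and 2 fell under control antibody, and 7 rose and 5 fell under GCGR antibody (3 to 6 when 1 library was left out, with 3 without library 9 or 23). Over all tested genes 11.6% were called higher and 18.3% lower under control antibody, and 13.2% and 16.6% under GCGR antibody.

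**Figure D5:**
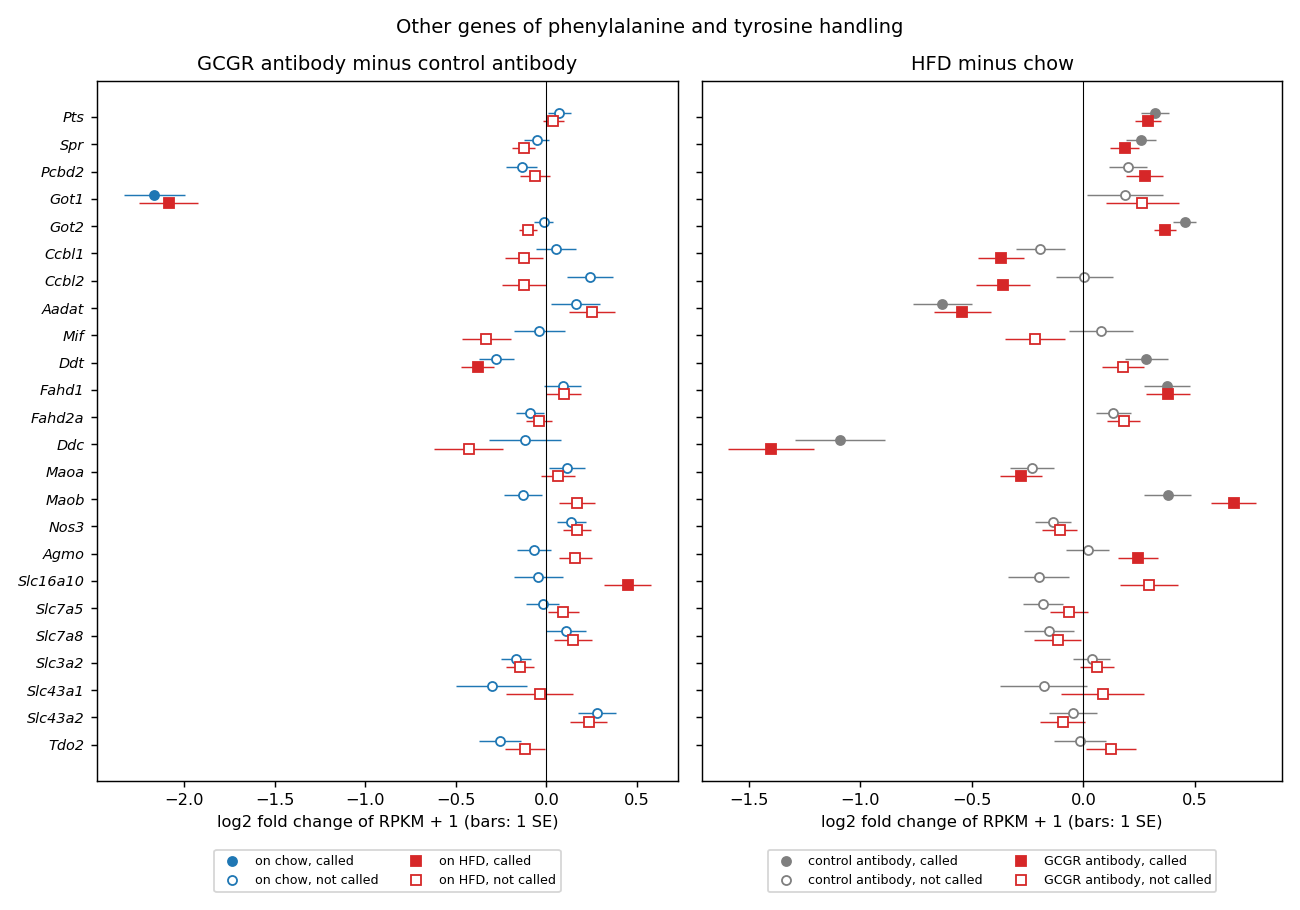
Log2 fold changes of RPKM + 1 (horizontal axes) of the other genes of phenylalanine and tyrosine handling (vertical axis; Ccbl1 and Ccbl2 are older symbols of Kyat1 and Kyat3) for the antibody effect on each diet (left) and the diet effect under each antibody (right); bars are 1 SE and filled symbols passed an adjusted p of 0.05. Got1 stands apart on the left at -2.16 and -2.09, and Pts, Spr and Got2 are filled to the right of 0 under both antibodies on the right.

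Among 14 transcription factors known to act in liver on genes of this kind, 0 were called for the antibody on chow by limma. Over all tested genes 0.394% were called higher and 0.553% lower there. At an unadjusted p under 0.05, 1 of the 14 was higher and 2 lower, as were 838 and 450 of all 11939 tested genes. On HFD 2 of the 14 were called higher and 1 lower, where 5.33% of all tested genes were called higher and 2.12% lower. Crem, a transcription factor of the cAMP pathway, fell there from 7.92 ± 1.43 to 5.17 ± 0.475 RPKM (-0.52 ± 0.09, adjusted p = 0.00119). Nr1h4, the bile acid receptor FXR, and Foxo1 rose, at 0.41 ± 0.08 (0.00195) and 0.32 ± 0.10 (0.0493). Foxo1 was highest in libraries 19 and 20, at 10.2 and 13.2 RPKM, and its fit without them is not given. With HFD under control antibody Cebpa rose (0.33 ± 0.10, adjusted p = 0.0117) and Hnf4a fell (-0.25 ± 0.09, 0.0302), and under GCGR antibody 6 rose and 2 fell. Over all tested genes 11.6% were called higher and 18.3% lower with diet under control antibody, and 13.2% and 16.6% under GCGR antibody.

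Likeness of pattern was measured as Pearson's r of log2(RPKM + 1) over the 23 libraries against 6146 genes with a mean of at least 5 RPKM, as a description, because the libraries share the diet and antibody groups. The gene most like Hgd was Oat, ornithine aminotransferase (r = 0.960), followed by Got1 (0.935) and Haao, an enzyme of tryptophan breakdown (0.934). The gene most like Qdpr was Ass1, of the urea cycle (0.942), followed by Gnmt (0.923) and Gstm7 (0.921). For Tat these were the ornithine carrier Slc25a15 (0.880), Slc25a51 (0.837) and the cationic amino acid transporter Slc7a2 (0.835). Hpd was most like Fah (0.904), Nit2 (0.893) and Ttc38 (0.891), and Fah was most like Pxmp2 (0.975), Tst (0.920) and Ttc38 (0.918). Pcbd1 had Cideb (0.970), Esd (0.958) and Uqcrq (0.949), Gstz1 had Prdx6 (0.941), Cmbl (0.935) and Lect2 (0.927), Gch1 had Cyp3a25 (0.916), Cyp3a59 (0.900) and Zcchc14 (0.880), and Gchfr had Ttc36 (0.881), Pemt (0.856) and Ddt (0.854).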

How the data were processed

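RNA of mouse liver was sequenced in 23 strand-specific libraries as single reads of 33 cycles, per the labels' protocols. The submitters' processing notes name bcl2fastq 2.17, FastQC and build GRCm38. No aligner, counter, annotation or strand setting is given in those notes. RPKM values were deposited by the authors in 1 table with gene IDs and symbols, whose 23 columns were matched to samples by title. RPKM are not counts, so log2(RPKM + 1) was tested with limma 3.58.1 in R 4.3.3, after keeping genes with at least 0.5 RPKM in at least 5 libraries (11939). A model of 4 group means was fitted to all libraries, with a mean-variance trend, two-sided, with Benjamini-Hochberg adjustment over all genes kept and 5 contrasts. The fitting code was tested on simulated data. Genes, lists and tests were chosen with earlier results of these data known. Named were all 9 genes, called genes of the lists, Got1, Got2 and the 3 genes most like each of the 9 (genes named as untested or by family were added after their values were seen). Positions and promoter windows are RefSeq's of GRCm38.p6, where all 9 genes matched, and overlaps are from GENCODE M21. The hydroxylation step and some genes and a motif of the lists are not reported here. Alternatives were pseudocounts of 0.1 and 0.5, no filter, 2 scalings, fits of 2 groups, no trend, exact permutation tests and leaving out each library. Depth per library is known only in relative terms, and no counting intervals were computed. No value of the 9 genes equals that of another gene in every library.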

Additional observations from a re-analysis of the deposited data

Results flagged for a closer look

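In 36 sets of libraries, each 1 of the 9 genes in 1 group, 3 held a value whose gap to its neighbour exceeded Dixon's 95% limit, where chance gives about 1 in 20. All 3 lay in the HFD group with GCGR antibody. Tat stood at 499 RPKM in library 20, with the next highest at 191. Pcbd1 stood at 305 RPKM in library 19, with the next highest at 249.8, and Hgd at 189 RPKM in library 19, with the next lowest at 209.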

How the results depend on the processing

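No paired analysis was possible because the titles number the samples from 1 to 23 and no number is shared between groups. Of the counts of called genes among the 9, the exact permutation test gave 0 lower for the antibody on chow (limma 3), 0 on HFD (2) and 0 for diet under GCGR antibody (1). For the antibody its smallest possible p, 0.00216, had an adjusted p of 0.151 on chow and 0.0760 on HFD. Its counts of 0 there thus hold for every gene of the table. Without libraries 19 and 20, chosen after the data were seen, the limma counts among the 9 were 4 lower on HFD and 0 lower for diet under GCGR antibody. Leaving out 1 library gave 1 to 3 lower on chow (1 without library 2, 5, 8 or 9, and 2 without library 1, 3, 4, 6 or 10), 2 to 4 on HFD (4 without library 19 and 3 without library 20) and 0 to 1 for diet under GCGR antibody (0 without library 10 or 11). Of the other pathway genes, the exact test called 0 lower on chow (limma 1), and on HFD 0 higher and 0 lower (1 and 2). On HFD 0 were higher without the filter, after median-ratio scaling, with equal column sums and in a fit of the 2 groups alone, where 1 was lower, and 2 were higher without libraries 19 and 20. For diet under GCGR antibody 3 were lower by the exact test and 3 without libraries 19 and 20 (limma 5). Leaving out 1 library gave 3 to 6 lower there (3 without library 9 or 23, 4 without library 6, 7, 8, 10 or 21, and 6 without library 20), 0 to 1 higher on HFD and 0 to 1 for the difference of antibody effects (1 without library 19), which was also 1 without libraries 19 and 20. Effects that changed sign were not called: Fah on HFD at -0.0563 (median-ratio scaling) and -0.0228 to 0.0456 (leaving out 1 library), Hgd for diet under control antibody at -0.0143 (equal column sums), and Tat for diet under GCGR antibody at -0.0783 (without 19 and 20) and -0.223 to 0.224 (leaving out 1 library). For the difference of antibody effects these were Qdpr at 0.0111 (equal sums), 0.0105 (without 19 and 20) and -0.0784 to 0.0121 (1 library), Gchfr at 0.0129 (equal sums) and -0.0876 to 0.0190 (1 library), and Tat at -0.0110 to 0.436 (1 library). Over all genes, the antibody on HFD called 636 higher and 253 lower, but 288 and 135 in the 2 groups alone, 0 and 0 by the exact test, and 469 lower without libraries 19 and 20. Leaving out 1 library gave 375 to 1149 higher and 168 to 454 lower there (moved by over 1.5 times without library 12, 14 or 19), and 3 to 44 higher and 2 to 21 lower for the difference. On chow the exact test called 0 (limma 47 higher and 66 lower), and leaving out 1 library gave 21 to 58 higher and 35 to 74 lower. The difference called 15 higher and 9 lower, but 4 and 4 without the filter, 4 and 2 with equal sums, 7 higher after median-ratio scaling, and 72 and 59 without libraries 19 and 20. Diet under GCGR antibody called 1983 lower, and 1237 by the exact test. The causes were not tested. For the difference, the fit of 2 groups and the exact test were not run. Absolute depth is unknown, and its limit on low values could not be set.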
